A study of Mus musculus with 16 samples.

Results

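The genes described here are 10 innate immune sensors and their proximal signalling partners, chosen by name for their known roles: the Toll-like receptors Tlr2, Tlr3, Tlr4 and Tlr13, the NOD receptors Nod1 and Nod2, the co-receptor Cd14, the adaptor Myd88, the kinase Ripk2 and the inhibitory pseudokinase Irak3. They are 10 of the 55414 gene identifiers in the count files. The rule that names them uses no expression value, but they were chosen with earlier results of these data known. The share of members called is therefore not an independent test. All 10 passed the filter on low counts in every comparison.

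RNA-Seq was performed on chondrocyte-enriched cells from the limb epiphyses of 3- to 4-day-old mice, pooled from males and females, in 16 libraries that form 4 groups of 4. Control cells, labelled Wild type, came from littermates of heterozygous Notch2tm1.1Ecan mice, labelled Notch2 mutant, which carry a global allele with a stop codon that removes the PEST domain and stabilizes NOTCH2. Cells of each genotype received vehicle or TNFα (50 ng/ml) over a period of 6 h. The comparisons ask how TNFα changed the cells of each genotype, how the genotypes differed under each treatment, and whether the response to TNFα differed between genotypes. Because the mutation is global, every cell type of the culture carries it, and the counts add mutant and wild-type Notch2 transcripts together. Serum was withdrawn before TNFα in the TNFα groups only according to the sample annotation, and in all groups according to the study's methods, so TNFα and serum withdrawal cannot be told apart if the annotation is right. The replicates are labelled as biological, with nothing that shows separate cultures or animals, so the p values measure the spread between these samples.

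Toll-like receptors recognize microbial lipids, nucleic acids and products of damaged tissue at the cell surface or in endosomes, and NOD1 and NOD2 recognize fragments of bacterial peptidoglycan in the cytoplasm. MYD88 carries the signal of most Toll-like receptors to kinases of the IRAK family, TLR3 signals through TICAM1 instead, and RIPK2 carries the signal of both NOD receptors. All of these routes end in NF-κB, which TNFα activates through its own receptor, and in cartilage Toll-like receptors are known for responses to fragments of the matrix.

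The sequences upstream of 4 members are shown because these members had the largest responses to TNFα among those with a RefSeq promoter (Tlr2, Tlr3 and Nod2) or the response that differed between genotypes (Irak3). They are the 250 bases before the annotated start of transcription, in GRCm38.p6 and read 5′ to 3′ on the strand of the gene, with capitals for any match to 4 motifs searched on both strands: the NF-κB motif, the RBPJ motif GTGGGAA, the AP-1 motif TGANTCA and the interferon-stimulated response element core GAAANNGAA. Tlr2 lies at chr3:83841609-83841858 on the minus strand, Tlr3 at chr8:45410381-45410630 on the minus strand, Nod2 at chr8:88647097-88647346 on the plus strand and the more distal of 2 Irak3 windows at chr10:120202131-120202380 on the minus strand.
Tlr2: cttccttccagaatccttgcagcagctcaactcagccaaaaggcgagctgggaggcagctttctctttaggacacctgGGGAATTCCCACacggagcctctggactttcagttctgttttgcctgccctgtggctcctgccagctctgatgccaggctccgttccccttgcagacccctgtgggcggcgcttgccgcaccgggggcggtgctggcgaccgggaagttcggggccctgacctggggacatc
Tlr3: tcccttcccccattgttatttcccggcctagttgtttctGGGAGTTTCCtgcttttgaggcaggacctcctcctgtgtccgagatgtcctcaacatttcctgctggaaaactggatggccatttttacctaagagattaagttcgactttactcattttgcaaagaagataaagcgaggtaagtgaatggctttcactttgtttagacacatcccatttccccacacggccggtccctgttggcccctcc
Nod2: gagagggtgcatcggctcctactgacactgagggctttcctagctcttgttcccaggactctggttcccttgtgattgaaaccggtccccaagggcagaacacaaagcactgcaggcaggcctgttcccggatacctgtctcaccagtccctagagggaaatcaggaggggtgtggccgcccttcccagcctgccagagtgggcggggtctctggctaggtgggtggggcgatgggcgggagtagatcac
Irak3: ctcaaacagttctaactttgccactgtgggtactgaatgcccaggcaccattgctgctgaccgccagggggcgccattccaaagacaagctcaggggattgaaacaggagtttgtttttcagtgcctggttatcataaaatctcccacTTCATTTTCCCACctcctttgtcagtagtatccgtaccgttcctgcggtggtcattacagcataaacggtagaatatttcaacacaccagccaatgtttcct

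The Tlr2 sequence held a palindromic NF-κB match, GGGAATTCCC, at bases -172 to -163 from the start, and its last bases were shared with an RBPJ match on the opposite strand at -167 to -161. Tlr3 held 1 NF-κB match, GGGAGTTTCC, at -211 to -202. The distal Irak3 window held an RBPJ match on the opposite strand at -96 to -90, overlapped by a match to the interferon element core, GAAAATGAA, at -102 to -94. The Nod2 sequence shown had no match to any of the 4. Among the members not printed, Myd88 had the interferon element core GAAAGCGAA at -40 to -32, and the windows of Tlr13, both windows of Nod1 and the proximal window of Irak3 had no match. Over windows of 300 bases, which add 50 bases after the start, the NF-κB motif was found in 5.8% of 32851 RefSeq windows, RBPJ in 6.38%, AP-1 in 7.81% and the interferon element core in 8.56%. A match describes these letters and is not evidence of binding.

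The labels were checked on marker genes. The 15 chondrocyte markers, which include Col2a1 and Acan, were all expressed and summed to 52943 to 56163 CPM (counts per 1000000 counts on genes, with TMM scaling) in control cells with vehicle and to 32716 to 38708 CPM in Notch2tm1.1Ecan cells with vehicle. Fibroblast and perichondrial markers, among them Col1a1, were also abundant, at 32084 to 34856 CPM in control cells with vehicle. Markers of macrophages, a cell type that expresses most of the 10 genes, summed to 94.4 to 101 CPM in control and 182 to 219 CPM in Notch2tm1.1Ecan cells with vehicle, and to 107 to 125 and 232 to 269 CPM with TNFα. Notch2 itself, which the allele leaves transcribed, had a log2 fold change of 0.23 in Notch2tm1.1Ecan against control cells with vehicle (SE 0.11, adjusted p = 0.283) and rose by 0.53 with TNFα (SE 0.12, adjusted p = 0.0178), and its counts do not tell the alleles apart. Heyl, a Notch target, rose by 3.04 on the log2 scale in Notch2tm1.1Ecan cells with vehicle (SE 0.33, adjusted p = 6.2e-07) and by 2.46 with TNFα (SE 0.42, adjusted p = 0.000144), by the quasi-likelihood test of edgeR after Benjamini-Hochberg adjustment, the source of every adjusted p given here. Heyl was near the limit of detection in control cells, at 2 to 5 counts per library with vehicle and 1 to 10 with TNFα. Library totals on genes ranged from 3439726 (Notch2tm1.1Ecan TNFα replicate 4) to 44237300.

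In 2 control libraries genes that respond to TNFα stood apart. Control vehicle replicate 4 had 447 CPM of the NF-κB target Icam1 against 34.6 to 41.0 CPM in the other 3 control vehicle libraries, which was 15.5% of the way to the mean of the other control TNFα libraries. Control TNFα replicate 4 had 2272 CPM against 2563 to 2780 CPM and so lacked 15.1% of that difference. For Tlr2, the corresponding shares were 15.4 and 21.7%, for Tlr3 18.0 and 20.7%, for Ripk2 15.95 and 13.1%, for Nod1 12.9 and 12.3%, and for Nod2 11.4 and 17.5%. They were 37.6 and 27.0% for Myd88, 26.6 and 24.6% for Irak3, and 11.4 and 48.7% for Cd14. Over 361 genes selected for induction in Notch2tm1.1Ecan cells, and for a minimum rise in the control libraries other than replicate 4, the medians were 16.2 and 19.1%. The folds of the members that rose in control cells, and other values that these libraries moved, are given with and without them.

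TNFα increased 8 of the 10 members in control cells and the same 8 in Notch2tm1.1Ecan cells: Tlr2, Tlr3, Nod1, Nod2, Cd14, Myd88, Ripk2 and Irak3. Among all genes tested, 23.3% were higher and 20.9% lower with TNFα in control cells, and 22.6 and 21.9% in Notch2tm1.1Ecan cells. In 7 of the 8, all but Myd88, the log2 fold change also reached 1, as it did with a rise in 8.47% of all genes in control and 9.2% in Notch2tm1.1Ecan cells. The count of members that fell was 0 in both genotypes. At an unadjusted p under 0.05 the counts of members that fell were 0 in control and 1, Tlr13, in Notch2tm1.1Ecan cells, and with DESeq2 they were 0 and 0. The 8 calls in control cells were the same without replicate 4 in either control group. Markers of other cells moved with TNFα too: 12 of 15 chondrocyte markers were lower and 0 higher in each genotype, and their sum was 37026 to 43875 CPM in control and 20591 to 22906 CPM in Notch2tm1.1Ecan cells with TNFα, below the vehicle libraries of the same genotype. Of the macrophage markers, 7 of 19 were higher and 1 lower in control cells, and 12 of 20 were higher and 1 lower in Notch2tm1.1Ecan cells. The part of these cells in the rises of the members was not tested. Fewer cells of a type and less RNA per cell cannot be told apart in these bulk samples.

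**Figure D1:**
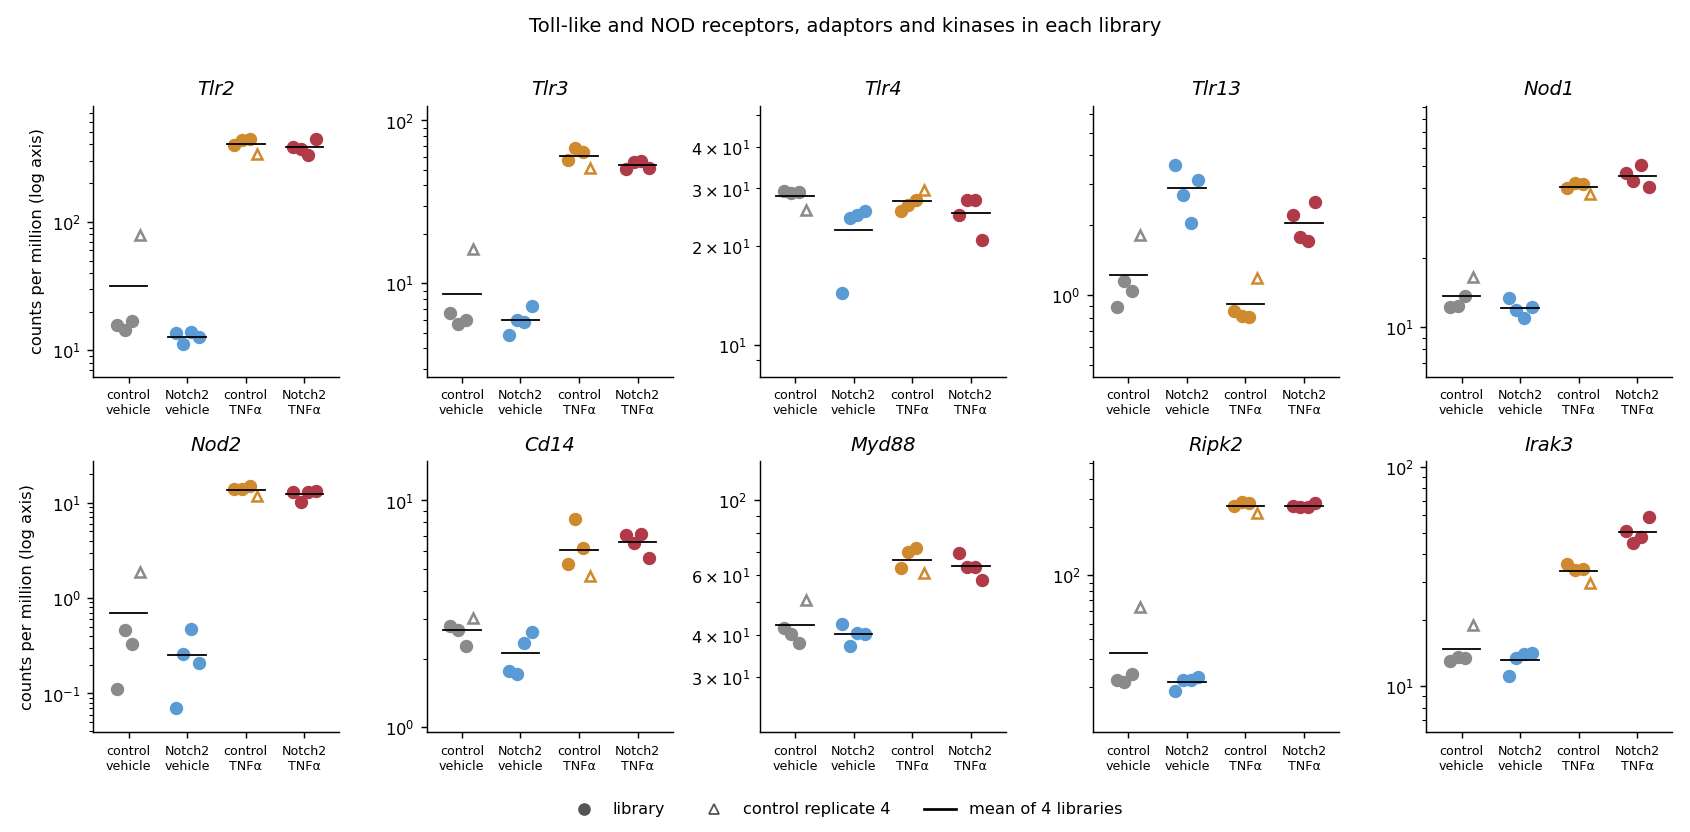
Expression of the 10 members in each of the 16 libraries, in CPM on log axes, by genotype and treatment. Open triangles are the replicate 4 libraries of control cells and bars are means of 4 libraries. Tlr2, Tlr3, Nod1, Nod2, Cd14, Myd88, Ripk2 and Irak3 separate by treatment in both genotypes, Tlr13 separates by genotype under both treatments, and Irak3 also separates by genotype with TNFα. With vehicle, Tlr2 and Tlr4 lie lower in all Notch2tm1.1Ecan than in all control libraries, but did not pass the test over 4 against 4 libraries.

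Tlr2 (ENSMUSG00000027995), a surface receptor for bacterial lipoproteins, had 15.8, 14.4, 16.9 and 79.0 CPM in the 4 control vehicle libraries and 397, 436, 443 and 337 CPM in the 4 control TNFα libraries. The groups did not overlap, but replicate 4 was the highest of the vehicle group and the lowest of the TNFα group. Its log2 fold change was 3.71 (SE 0.68, adjusted p = 0.00466) over 4 against 4 libraries and 4.80 (SE 0.059, adjusted p = 5.9e-30) without replicate 4. In Notch2tm1.1Ecan cells Tlr2 went from 13.5, 11.2, 13.8 and 12.6 CPM to 381, 371, 333 and 440 CPM, a log2 fold change of 4.94 (SE 0.085, adjusted p = 2.1e-25). The Notch2tm1.1Ecan groups did not overlap either, and their spread within a group was small beside the change.

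Tlr3 (ENSMUSG00000031639), the endosomal receptor for double-stranded RNA, had 6.63, 5.66, 6.00 and 16.4 CPM in control cells with vehicle and 57.5, 68.2, 63.7 and 51.3 CPM with TNFα. Again replicate 4 was the highest vehicle and the lowest TNFα library, without overlap of the groups. The log2 fold change was 2.82 (SE 0.35, adjusted p = 0.000729), or 3.402 (SE 0.092) without replicate 4. Tlr3 rose from 4.82 to 7.29 CPM to 50.5 to 56.4 CPM in Notch2tm1.1Ecan cells, by 3.17 on the log2 scale (SE 0.10, adjusted p = 6.4e-20).

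Nod2 (ENSMUSG00000055994), the cytoplasmic receptor for muramyl dipeptide, was near the limit of detection with vehicle. Its counts were 2, 6, 5 and 31 in the control and 1, 5, 9 and 9 in the Notch2tm1.1Ecan vehicle libraries, and 176, 255, 262 and 229 and then 197, 177, 225 and 47 with TNFα, the last in the library of 3439726 counts. As levels, the TNFα libraries held 13.7, 13.9, 15.0 and 11.8 CPM in control and 12.8, 10.1, 12.8 and 13.1 CPM in Notch2tm1.1Ecan cells. Every TNFα library exceeded every vehicle library of its genotype. The log2 fold change was 4.30 (SE 0.47, adjusted p = 0.000239) in control cells, 5.66 (SE 0.24) without replicate 4 and 5.59 (SE 0.24, adjusted p = 3.9e-17) in Notch2tm1.1Ecan cells, and the few counts with vehicle limit the precision of its size.

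Nod1 (ENSMUSG00000038058), which recognizes peptidoglycan with diaminopimelic acid, was detected well with vehicle, at 12.2 to 16.4 CPM in control and 10.95 to 13.3 CPM in Notch2tm1.1Ecan cells. With TNFα it had 37.9 to 42.2 and 40.4 to 50.6 CPM, respectively. Nod1 rose by 1.61 on the log2 scale in control (SE 0.087, adjusted p = 1.4e-11), or 1.74 without replicate 4, and by 1.97 in Notch2tm1.1Ecan cells (SE 0.089, adjusted p = 1.5e-16), so that of the NOD receptors the one scarcely detected with vehicle had the larger fold change.

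Tlr4 (ENSMUSG00000039005), the signalling receptor for lipopolysaccharide, did not pass the test with TNFα in either genotype. It had 29.5, 29.1, 29.2 and 25.8 CPM in control cells with vehicle and 25.6, 26.8, 27.7 and 29.7 CPM with TNFα, and the groups overlapped. The log2 fold change was -0.0014 (SE 0.072, adjusted p = 0.989), and its sign changed when single libraries were left out. In Notch2tm1.1Ecan cells it was 0.24 (SE 0.17, adjusted p = 0.294), with 14.5, 24.5, 24.9 and 25.7 CPM with vehicle and 24.9, 27.7, 27.6 and 20.9 CPM with TNFα. The vehicle library at 14.5 CPM was the lowest of the 16.

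Tlr13 (ENSMUSG00000033777), an endosomal receptor for bacterial ribosomal RNA that mice have and humans lack, did not pass the test with TNFα. The log2 fold change was -0.37 in control (SE 0.32, adjusted p = 0.379) and -0.50 in Notch2tm1.1Ecan cells (SE 0.22, adjusted p = 0.0709). The second passed the threshold without Notch2tm1.1Ecan vehicle replicate 3 (log2 fold change -0.63, adjusted p = 0.0289).

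Cd14 (ENSMUSG00000051439), which hands lipopolysaccharide to TLR4, had 2.78, 2.68, 2.28 and 3.03 CPM in control cells with vehicle and 5.22, 8.26, 6.19 and 4.62 CPM with TNFα. In Notch2tm1.1Ecan cells it went from 1.71 to 2.63 CPM to 5.57 to 7.10 CPM. Vehicle and TNFα libraries did not overlap in either genotype, and Cd14 rose by 1.22 (SE 0.19, adjusted p = 1.6e-05) and 1.67 (SE 0.18, adjusted p = 8.2e-09) on the log2 scale. In control cells without replicate 4 the rise was 1.39 (SE 0.20). Cd14 therefore rose where its partner Tlr4 did not pass the test.

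Myd88 (ENSMUSG00000032508), the adaptor of most Toll-like receptors and of the IL-1 receptor, had the smallest rise of the 8. Its levels were 37.8 to 50.6 CPM with vehicle and 60.7 to 72.3 CPM with TNFα in control cells, and 37.0 to 42.9 and 58.2 to 69.7 CPM in Notch2tm1.1Ecan cells. The log2 fold changes were 0.69 (SE 0.091, adjusted p = 4.2e-05) and 0.73 (SE 0.072, adjusted p = 2.2e-09), and 0.82 (SE 0.064) in control cells without replicate 4. Exons of Myd88 share 628 bases with Acaa1a on the opposite strand, and Acaa1a rose by 0.77 and 0.87 on the log2 scale in the same comparisons. The strand setting of the counting is not given in the sources used here, and the part of the overlap in the Myd88 counts was not tested.

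Ripk2 (ENSMUSG00000041135), the kinase downstream of NOD1 and NOD2, had 22.4, 21.6, 24.1 and 63.7 CPM in control cells with vehicle and 270, 286, 283 and 246 CPM with TNFα. As for Tlr2 and Tlr3, the replicate 4 libraries were the highest and the lowest of their groups, and the groups did not overlap. Its log2 fold change was 3.08 (SE 0.42, adjusted p = 0.0011), 3.66 (SE 0.053) without replicate 4, and 3.69 (SE 0.071, adjusted p = 1.3e-24) in Notch2tm1.1Ecan cells, where it went from 18.9 to 23.3 CPM to 266 to 285 CPM. Both NOD receptors and the kinase that serves them thus rose in both genotypes.

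Irak3 (ENSMUSG00000020227), also called IRAK-M, lacks kinase activity and restrains signalling from MYD88. It had 13.03, 13.5, 13.5 and 19.1 CPM in control cells with vehicle and 36.1, 34.0, 34.2 and 29.5 CPM with TNFα. In Notch2tm1.1Ecan cells it had 11.1, 13.4, 14.1 and 14.2 CPM with vehicle and 51.0, 44.9, 47.7 and 58.7 CPM with TNFα. Treatment separated the libraries in both genotypes, and the 4 highest libraries of the 16 were the Notch2tm1.1Ecan TNFα libraries. Irak3 rose by 1.21 in control (SE 0.11, adjusted p = 5.0e-07) and by 1.95 in Notch2tm1.1Ecan cells (SE 0.090, adjusted p = 2.8e-16) on the log2 scale, which is 2.32-fold and 3.85-fold, and by 1.42 (SE 0.083) in control cells without replicate 4. It shares 192 exonic bases with Tmbim4 on the opposite strand, and Tmbim4 rose by 0.85 and 0.92.

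**Figure D2:**
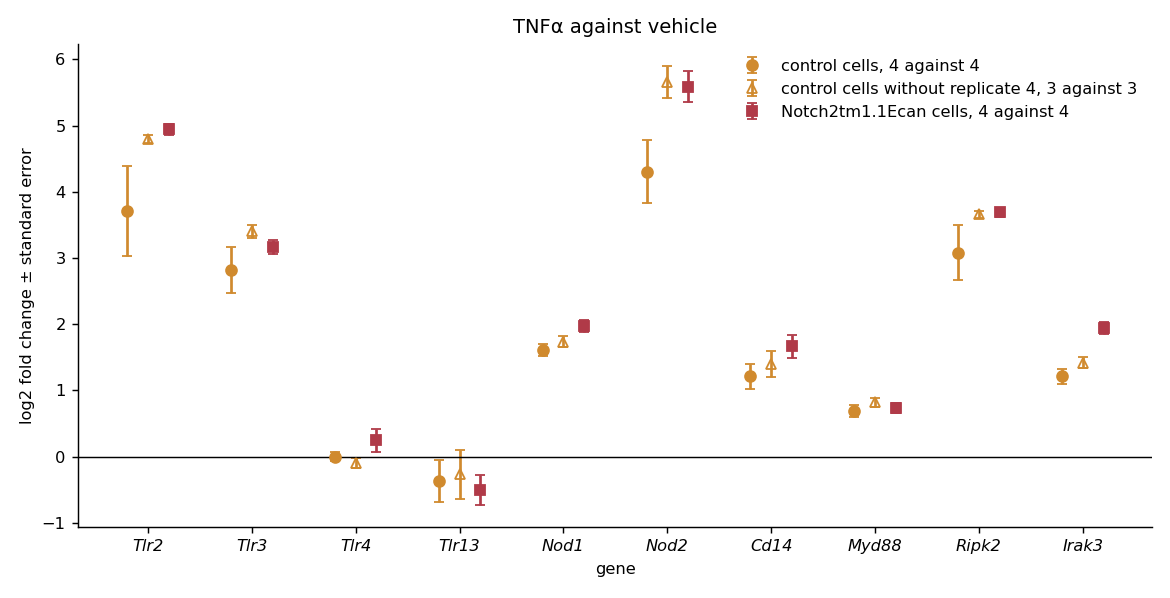
Log2 fold change of each member with TNFα against vehicle, with its standard error, in control cells, in control cells without replicate 4 and in Notch2tm1.1Ecan cells. Tlr2, Tlr3, Nod2 and Ripk2 have wide errors in the 8 control libraries, and their values without replicate 4 are 4.80, 3.402, 5.66 and 3.66. Tlr4 and Tlr13 are the members that did not pass the test.

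The genotype by TNFα interaction, which tests whether the response differed between genotypes, was called for 1 member, Irak3, against 0.474% of 21321 genes. The log2 difference in response was 0.74 (SE 0.14, adjusted p = 0.00966), larger in Notch2tm1.1Ecan cells. Without replicate 4 in either control group it was 0.53 (SE 0.13, adjusted p = 0.0332), and over all alternatives it lay between 0.53 and 0.79 with adjusted p values up to 0.0462. The other 9 members did not pass. Tlr2 had an interaction of 1.23 (SE 0.63, adjusted p = 0.645) and Nod2 of 1.28 (SE 0.71, adjusted p = 0.672), which were 0.15 (SE 0.11) and -0.070 (SE 0.58) without the control replicates 4. Ripk2 moved in the same way, from 0.62 (SE 0.39) to 0.032 (SE 0.092).

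With vehicle, 1 of the 10 members, Tlr13, was higher in Notch2tm1.1Ecan than in control cells, against 6.19% of all genes higher and 4.35% lower. With TNFα, Tlr13 and Irak3 were higher, against 5.63% of all genes higher and 4.31% lower. The count of lower members was 0 under both treatments, also at an unadjusted p under 0.05. With DESeq2 it was 0 under both, and 1 with vehicle at an unadjusted p under 0.05. With vehicle, Nod2 and Tlr4 were called lower with no filter beyond 1 count, and Tlr2 without control vehicle replicate 4. With TNFα, Tlr3 was called lower without control TNFα replicate 4.

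Irak3 with TNFα had a log2 fold change of 0.59 between genotypes (SE 0.081, adjusted p = 6.5e-06), 1.504-fold, from means of 33.4 ± 2.80 and 50.6 ± 5.98 CPM (SD, n = 4). Without control TNFα replicate 4 it was 0.51 (SE 0.080, adjusted p = 3.6e-05). With vehicle the log2 fold change was -0.16 (SE 0.12, adjusted p = 0.502), and -0.014 (SE 0.10) without control vehicle replicate 4. The higher level in Notch2tm1.1Ecan cells was thus measured after TNFα. Tmbim4, which overlaps it, had a log2 fold change of -0.078 between genotypes with TNFα (adjusted p = 0.624).

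Tlr13 had 0.891, 1.15, 1.04 and 1.82 CPM in control and 3.61, 2.70, 2.04 and 3.14 CPM in Notch2tm1.1Ecan cells with vehicle. The groups did not overlap, and the log2 fold change was 1.22 (SE 0.25, adjusted p = 0.00141), or 1.48 (SE 0.26) without control vehicle replicate 4. With TNFα it had 0.858, 0.815, 0.802 and 1.18 CPM in control and 2.21, 1.77, 1.70 and 2.50 CPM in Notch2tm1.1Ecan cells, again without overlap. The log2 fold change was 1.098 (SE 0.29, adjusted p = 0.0112), from 11, 15, 14 and 23 counts against 34, 31, 30 and 9 counts. Without Notch2tm1.1Ecan TNFα replicate 1 the log2 fold change was 1.03 and the adjusted p 0.0509, and the call was kept when any other single library was left out. Tlr13 was among the genes that the study picked from these libraries, so its direction here is not independent evidence.

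Macrophage markers moved with Tlr13 between genotypes. With vehicle, 16 of 20 were higher in Notch2tm1.1Ecan cells, and with TNFα 18 of 20, with 0 lower by edgeR's quasi-likelihood test, at an unadjusted p under 0.05 and with DESeq2. Aif1 was at 3 counts or fewer in all control libraries. Several of these markers, among them Adgre1, Csf1r, C1qa and Marco, were among the genes that the study picked from these libraries. Their direction between genotypes is therefore not independent evidence. Per 100 CPM of summed markers, Tlr13 ranged from 0.943 to 1.93 CPM in control and 1.01 to 1.72 CPM in Notch2tm1.1Ecan cells with vehicle, and from 0.684 to 1.02 and 0.687 to 1.078 CPM with TNFα, so the genotypes overlapped on this scale. Irak3 per 100 CPM of the same markers was lower in Notch2tm1.1Ecan than in control libraries, at 17.4 to 25.3 against 25.5 to 31.99 CPM with TNFα. Endothelial markers summed to 6.91 to 9.28 CPM in control and 16.4 to 21.0 CPM in Notch2tm1.1Ecan cells with vehicle, and 15 of 15 chondrocyte markers were lower in Notch2tm1.1Ecan cells under both treatments. The part of these cell types in the differences of Tlr13 and Irak3 was not tested.

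**Figure D3:**
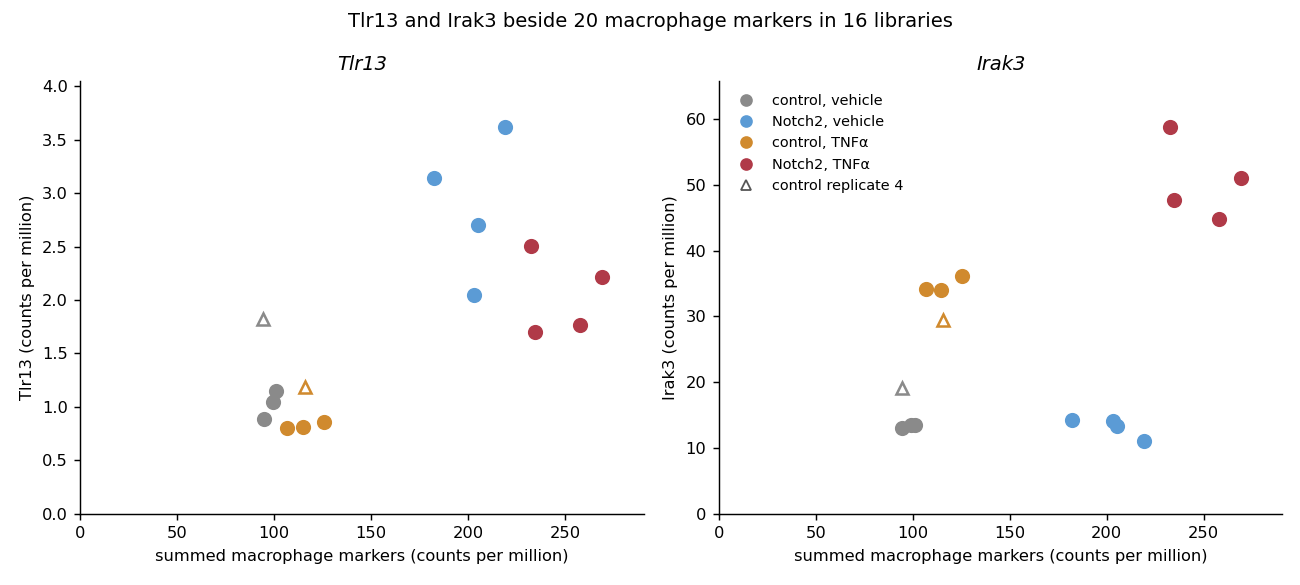
Tlr13 and Irak3 against the sum of 20 macrophage markers, all in CPM, in the 16 libraries. Open triangles are the replicate 4 libraries of control cells. Tlr13 is high in the libraries of both Notch2tm1.1Ecan groups, where the markers sum to 182 CPM or more, whereas Irak3 with vehicle stays between 11.1 and 19.1 CPM in both genotypes.

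Tlr2 with vehicle had a log2 fold change of -1.31 between genotypes (SE 0.66, adjusted p = 0.331). Without control vehicle replicate 4 it was -0.31 (SE 0.099, adjusted p = 0.0446) and passed the threshold, with 14.4 to 16.9 CPM in the remaining control and 11.2 to 13.8 CPM in the Notch2tm1.1Ecan libraries. Tlr3 with TNFα had -0.15 (SE 0.077, adjusted p = 0.265), and -0.24 (SE 0.071, adjusted p = 0.0296) without control TNFα replicate 4. Nod1 with TNFα had 0.19 (SE 0.074, adjusted p = 0.115), and 0.22 (adjusted p = 0.0489) without Notch2tm1.1Ecan TNFα replicate 4, the shallowest library. Each of these 3 members changed sides of the threshold with 1 library. Nod2, Cd14, Myd88 and Ripk2 had log2 fold changes between -0.16 and 0.16 with TNFα, and Tlr4 had -0.069 (SE 0.086, adjusted p = 0.715). With vehicle Tlr4 had -0.33 (SE 0.17, adjusted p = 0.312), and -0.33 (adjusted p = 0.00885) with no filter beyond 1 count.

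**Figure D4:**
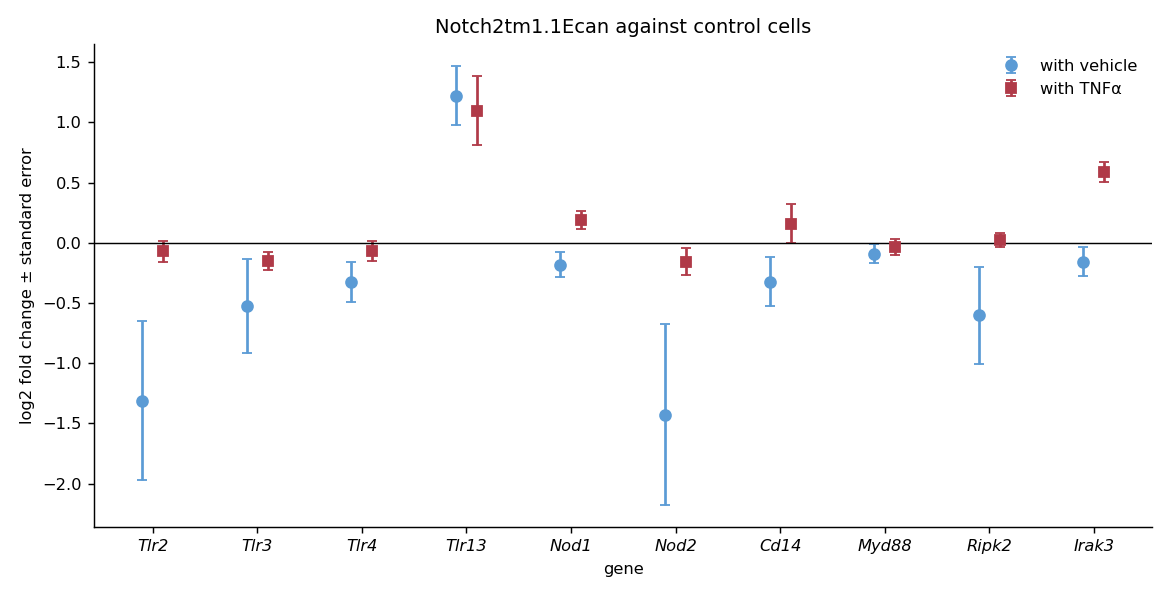
Log2 fold change of each member in Notch2tm1.1Ecan against control cells, with its standard error, with vehicle and with TNFα. Tlr13 is above 0 under both treatments and Irak3 with TNFα, at 0.59. With vehicle the standard errors of Tlr2, Tlr3 and Ripk2 were 0.66, 0.39 and 0.40, and 0.099, 0.15 and 0.086 without control vehicle replicate 4, whereas that of Nod2 was 0.75 and 0.68.

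Levels of different members were compared per kilobase of exon. In control cells with vehicle the order was Myd88 (10.9 ± 1.44 CPM per kb), Tlr2, Ripk2, Tlr4 (4.05 ± 0.25), Irak3, Nod1, Tlr3, Cd14, Tlr13 (0.259 ± 0.087) and Nod2 (0.138 ± 0.16). The ranges of neighbours overlapped except between Tlr4 and Irak3 and between Cd14 and Tlr13. This order rested on replicate 4: over the other 3 libraries it was Myd88 (10.3 ± 0.51), Tlr4 (4.17 ± 0.025), Ripk2 (3.88 ± 0.21), Tlr2 (2.85 ± 0.23), Irak3, Nod1, Cd14, Tlr3, Tlr13 and Nod2, with no overlap of neighbours. In control cells with TNFα the order was Tlr2 (73.4 ± 8.88), Ripk2 (46.3 ± 3.11), Myd88 (17.1 ± 1.44), Tlr3 (11.2 ± 1.37), Nod1, Irak3, Tlr4, Cd14, Nod2 (2.71 ± 0.27) and Tlr13 (0.193 ± 0.038). Here Tlr4, Cd14 and Nod2 were the neighbours whose ranges overlapped, and the order was the same without replicate 4. TNFα thus placed Tlr2 and Ripk2 above Myd88 without overlap, and Nod2 above Tlr13.

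Notch2tm1.1Ecan cells with vehicle had Myd88 highest at 10.3 ± 0.62 CPM per kb, then Ripk2, Tlr4, Irak3, Tlr2 and Nod1, each overlapping the next, then Cd14, Tlr3, Tlr13 and Nod2 (0.0505 ± 0.033). With TNFα, Tlr2 (69.3 ± 8.08), Ripk2 (46.6 ± 1.41), Myd88 (16.4 ± 1.21) and Tlr3 (9.97 ± 0.55) led as in control cells. Irak3 followed at 8.94 ± 1.06 CPM per kb, above Nod1 at 7.61 ± 0.75, whereas in control cells with TNFα Nod1 at 6.83 ± 0.34 was above Irak3 at 5.91 ± 0.50. The ranges of Irak3 and Nod1 overlapped in Notch2tm1.1Ecan cells and did not in control cells.

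The pattern over the 16 libraries was compared with that of 13428 genes by the root mean square difference of log2 CPM, each gene centred on its own mean, where 0 is an identical pattern. Closest to Tlr2 were Irgm2 (0.22), Uba7 (0.25) and Tnfaip3 (0.26), and among the closest to Tlr3 were Enpp4 and Samd9l (0.12 to 0.14). Ripk2 was closest to Birc3 (0.11), an NF-κB target that encodes an inhibitor of apoptosis, then to Steap4 and Scube3. Nod1 was closest to Ntn1 (0.093), Mill2 and Unc93b1, Cd14 to Socs1 (0.18), Serpinb9 and Ralgds, and Myd88 to Trim26 (0.085), Zkscan17 and Rab12. Irak3 was closest to Lpar1 (0.14), Slco3a1 and Nrg1, and Tlr13 to Akap12 (0.27), Adamts12 and Frmd4a. Tlr4 was closest to Capn7 (0.12), Fbxo11 and Pcmtd1. This is a description over libraries that share their groups.

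The rest of the pathway was described with 75 other genes in 5 lists, which were also chosen with earlier results of these data known. In control cells 35 of the 70 that were tested rose with TNFα and 7 fell, and in Notch2tm1.1Ecan cells 35 of 71 rose and 5 fell. Over all genes tested, 23.3% were higher and 20.9% lower in control cells, and 22.6 and 21.9% in Notch2tm1.1Ecan cells. The inhibitors of receptor signalling held the largest share, with 14 of 18 higher and 1 lower in control cells and a median log2 fold change of 1.54 against 0.039 over all genes. The NOD pathway and other NLR genes had 8 of 17 higher and 1 lower (median 0.83), the TIR adaptors and proximal kinases 10 of 21 higher and 2 lower (median 0.21), the co-receptors and chaperones 3 of 9 higher and 2 lower (median -0.051), and the other Toll-like receptors 1 of 5 lower (median -0.48). With DESeq2 the 35 higher calls were 29.

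Among the inhibitors, Tnfaip3, which encodes the NF-κB feedback inhibitor A20, went from 8.32 ± 8.78 to 112 ± 9.55 CPM in control cells (log2 fold change 3.77, adjusted p = 0.00214), and its log2 fold change was 4.93 without replicate 4. Tnip3, which encodes an A20-binding protein, had 0 counts in 3 control vehicle libraries and 7 in replicate 4, and a mean of 4.13 CPM with TNFα. Without replicate 4 it was at least 21.3-fold higher with TNFα, against the floor of 3 counts per library, and in Notch2tm1.1Ecan cells, where it had at most 1 count with vehicle, at least 19.9-fold higher. Peli2, a ubiquitin ligase of the IRAK route that was placed in this list, fell by 0.68 on the log2 scale (adjusted p = 2.9e-06). It was the 1 gene of the list called lower over 4 against 4 control libraries. Whether it acts as an inhibitor in these cells was not tested.

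Of the lipopolysaccharide receptor complex, Lbp, which encodes the carrier of lipopolysaccharide in serum, rose by 3.38 on the log2 scale in control (adjusted p = 0.00164), or 4.10 without replicate 4, and by 3.66 in Notch2tm1.1Ecan cells (adjusted p = 3.5e-24). Ly96, which encodes the MD-2 subunit bound to TLR4, rose by 0.81 in control cells (adjusted p = 0.00152) and had 0.22 in Notch2tm1.1Ecan cells (adjusted p = 0.346), with an interaction of -0.59 that did not pass (adjusted p = 0.507). So Lbp and Cd14 rose in both genotypes, Ly96 passed the test in control cells and Tlr4 in neither. With TNFα, Ly96 was not called between genotypes over 4 against 4 libraries. Without control TNFα replicate 4 it was lower in Notch2tm1.1Ecan cells, at -0.59 (SE 0.19, adjusted p = 0.0469). Unc93b1, the chaperone that brings TLR3 and TLR13 to endosomes, rose by 1.68 and 1.796 (adjusted p = 1.2e-05 and 5.6e-18). Hmgb1 and Hsp90b1 fell by 0.48 and 0.15 in control cells.

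Next to MYD88 the kinases of the IRAK family passed the test. In control cells Irak2 rose by 0.86 (adjusted p = 5.1e-07), Irak4 by 0.35 (adjusted p = 0.000987) and Irak1 by 0.17 (adjusted p = 0.0065) on the log2 scale. Tirap, which bridges TLR2 and TLR4 to MYD88, had -0.21 (adjusted p = 0.0687), Ticam1, the adaptor of TLR3, had 0.17 (adjusted p = 0.0737), or 0.23 (adjusted p = 0.0234) without replicate 4, and Traf6 had 0.078 (adjusted p = 0.448). The largest rises of this list were in the transcription factors Irf7, at 3.73 (adjusted p = 0.0113), and Irf5, at 3.07 (adjusted p = 5.5e-06), which were 5.51 and 3.47 without replicate 4. Ube2n and Tab2, which act with TRAF6, fell by 0.48 and 0.15.

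Of the NOD pathway and other NLR genes, Nlrp3, the inflammasome sensor, went from 0.171 ± 0.15 to 1.77 ± 0.17 CPM in control cells (log2 fold change 3.33, adjusted p = 1.7e-06). Without replicate 4 its vehicle libraries had at most 3 counts, and it was at least 7.65-fold higher. Nlrc3 fell by 1.85 (adjusted p = 0.00482), at 6 counts or fewer per library with TNFα. Nlrc4 had 0 counts with vehicle and at most 6 with TNFα in control cells, a level at least 1.09-fold above the floor of 3 counts per library. Tlr6, the partner of TLR2, fell by 0.65 in control cells (adjusted p = 0.00893). In Notch2tm1.1Ecan cells the falls of Nlrc3 and Tlr6 were not called. There 0 of 17 NOD pathway and other NLR genes and 0 of 6 other Toll-like receptors were lower with TNFα. At an unadjusted p under 0.05 these counts were 0 and 2, and the median of the other Toll-like receptors was 0.041. Tlr9, Tlr11 and Tlr12 had at most 5 counts in any library and were not tested with TNFα in control cells.

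**Figure D5:**
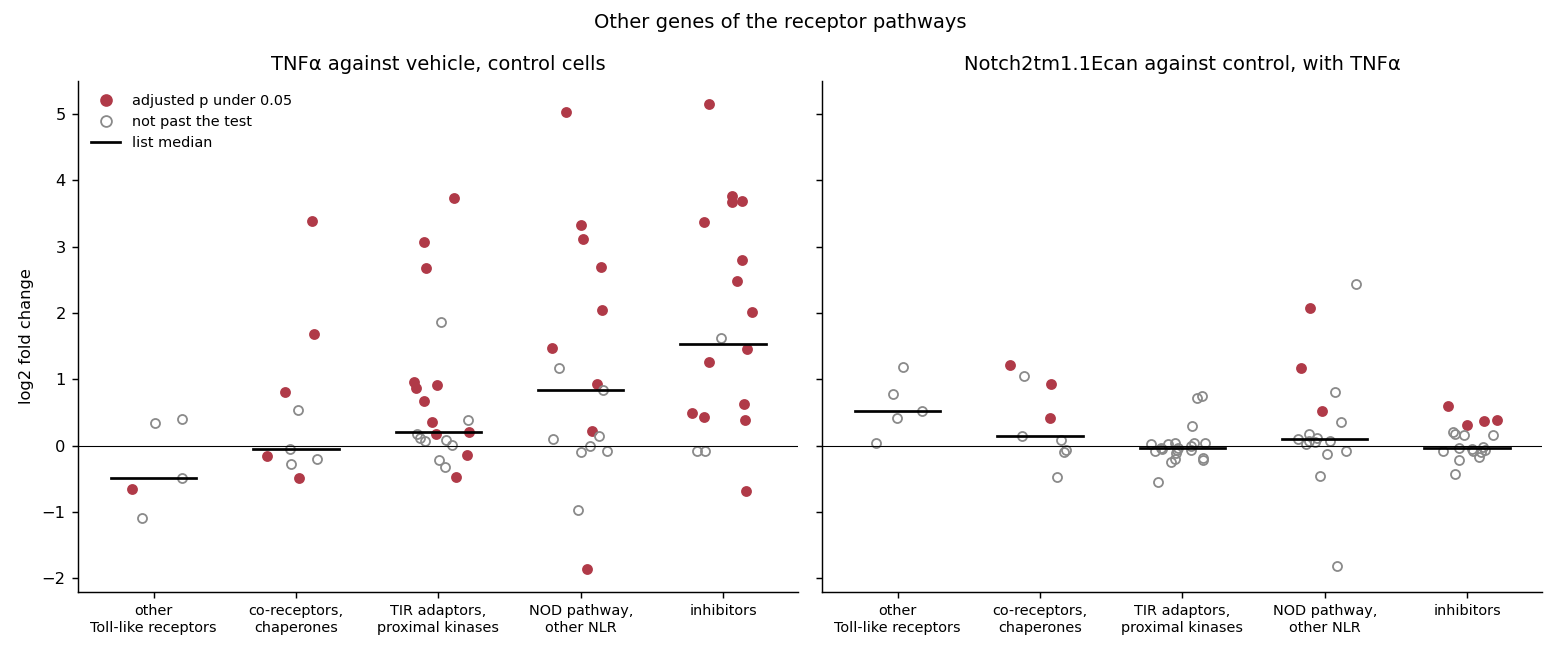
Log2 fold changes of the other pathway genes in 5 lists, for TNFα against vehicle in control cells and for Notch2tm1.1Ecan against control cells with TNFα. Filled points passed the test, open points did not, and bars are medians. With TNFα, 14 of 18 inhibitors were higher and their median was 1.54, whereas 10 of 70 genes were higher between genotypes.

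Between genotypes 5 of 68 pathway genes were higher and 0 lower in Notch2tm1.1Ecan cells with vehicle, beside 6.19% of all genes higher and 4.35% lower. Without control vehicle replicate 4, 8 of 68 were higher and 1 lower, where 1980 genes were called in all, against 2048 with it. With TNFα 10 of 70 were higher and 0 lower, beside 5.63% of all genes higher and 4.31% lower. Without control TNFα replicate 4, 9 of 70 were higher and 5 lower, where 2075 genes were called in all, against 1912 with it. Nlrp3 was higher by 1.17 on the log2 scale with TNFα (adjusted p = 0.000171), at 3.96 ± 0.40 against 1.77 ± 0.17 CPM, and Nlrc3 by 2.07 (adjusted p = 0.00797). Cd180 and Cd36, which macrophages also express, were higher by 1.21 (adjusted p = 0.00487) and 0.93 (adjusted p = 1.3e-06). Nlrp3 and Cd180 were among the genes that the study picked from these libraries, so their direction here is not independent evidence. Peli2 was higher by 0.59 (adjusted p = 0.000171) and Tnfaip3 by 0.39 (adjusted p = 0.000612), beside 0.59 for Irak3. No gene passed in this comparison in the list of adaptors and proximal kinases, which also holds transcription factors. Of its 21 genes, 1 was higher and 3 lower at an unadjusted p under 0.05, and DESeq2 called 0. Without control TNFα replicate 4, 2 genes of this list were lower, the kinase Ikbke and the transcription factor Irf5 (log2 fold changes -0.31 and -0.33). Ikbke was chosen for naming after its value was seen. The interaction was called for 0 of 72 pathway genes by edgeR's quasi-likelihood test and 0 by DESeq2, beside 0.474% of all genes by the former. At an unadjusted p under 0.05, 6 were higher and 4 lower. Without the control replicates 4 it was called for 3 of 71, all lower, where 132 genes were called in all, against 101 with them.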

How the data were processed

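The authors deposited 1 file of whole-number counts per library, made with htseq-count from paired end reads of stranded mRNA libraries, without normalization. The study's methods give HISAT2 and GRCm39, whereas the submitters' processing notes give HISAT2 2.1.0, SAMtools 1.9 and GRCm38, so the build behind the counts is uncertain. Reads were trimmed with Trimmomatic. The strand setting is not given in the sources used here. From 8.81 to 12.1% of the fragments per library fell on entries that name no gene, which were removed. The median total on genes was 17062419, and the limit of 3 counts taken as a floor covers counting error only.

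Counts were analyzed with edgeR 4.0.16 in R 4.3.3 (TMM scaling, robust quasi-likelihood fits, F test) on genes whose counts summed to at least 10 across the libraries of a comparison. Each 2-group comparison used its 8 libraries and the interaction all 16. P values were adjusted by Benjamini-Hochberg over all genes tested, and an adjusted p under 0.05 was called. The procedure was tested on simulated data. Gene names, positions and exon lengths are from GENCODE M39 on GRCm39, where 665 identifiers had no entry. Promoter windows are from RefSeq on GRCm38.p6 and were used for 7 of the 10 members. Tlr4 and Ripk2 had no entry, and Cd14 was left out of the promoter search.

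Named were all members, a fixed set of proximal partners, the 2 called genes with the largest rise and the 2 with the largest fall in each list (for TNFα in control cells and between genotypes with TNFα), and the 3 genes most alike each member with a mean of at least 1 CPM. Some genes that this rule names are not reported here. Notch2, Heyl and Icam1 served as checks, and Acaa1a and Tmbim4 were added later because they overlap members. The members and lists were chosen with earlier results of these data known. Alternatives were DESeq2 1.42.0, RLE scaling, the filterByExpr filter, no filter beyond 1 count, a fold cutoff, an adjusted p under 0.1, a joint fit of the 4 groups, a block for the replicate number, each library left out in turn, and both control replicates 4 left out. Libraries were compared pair by pair, and none was a copy of another. Python 3.11.15 with numpy 2.4.6, pandas 2.3.3 and matplotlib 3.10.9 served for tables and plots.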

Additional observations from a re-analysis of the deposited data

Results flagged for a closer look

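In 8 of 40 groups of 4 libraries, 1 for each member and group, a library lay farther from the rest than Dixon's test allows at 95%, where chance gives about 1 in 20. Of these, 5 were control vehicle replicate 4: Tlr2 had 79.0 CPM there against 14.4 to 16.9 CPM in the other 3 libraries, Tlr3 16.4 against 5.66 to 6.63 CPM, Ripk2 63.7 against 21.6 to 24.1 CPM, Irak3 19.1 against 13.03 to 13.5 CPM, and Tlr4 25.8 against 29.1 to 29.5 CPM. The first 4 genes rose with TNFα, and Tlr4, which lay below the others, did not pass that test. Tlr4 had 14.5 CPM in Notch2tm1.1Ecan vehicle replicate 1 against 24.5 to 25.7 CPM. In control TNFα replicate 4 Tlr13 had 1.18 CPM against 0.802 to 0.858 CPM. Nod2 had 10.1 CPM in Notch2tm1.1Ecan TNFα replicate 2 against 12.8 to 13.1 CPM.

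The response of Irak3 to TNFα differed between genotypes, with a log2 interaction of 0.74 (adjusted p = 0.00966 by edgeR's quasi-likelihood test), and all 4 Notch2tm1.1Ecan TNFα libraries exceeded the 4 control TNFα libraries.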

How the results depend on the processing

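All 8 rises with TNFα kept their direction and their call in each genotype under every alternative that gave a p value, except that Myd88 fell short of a log2 fold change of 1. DESeq2 gave no adjusted p for Tlr2 in 3 comparisons: TNFα in control cells, the genotypes with vehicle, and the interaction. Of 786 values under alternatives, 764 kept direction and side of the threshold. The called members between genotypes with vehicle were 3 with no filter beyond 1 count (Tlr13 higher, Nod2 and Tlr4 lower), and 1 to 2 with single libraries left out. With TNFα they were 1 with a fold cutoff and 1 to 3 with single libraries left out. Signs that reversed belonged to values that passed no test. With single libraries left out, the log2 change of Tlr4 with TNFα in control cells lay between -0.054 and 0.027 and that of Ripk2 between genotypes with TNFα between -0.034 and 0.038. The interaction lay between -0.18 and 0.49 for Tlr3, -0.41 and 0.034 for Tlr13, -0.022 and 1.68 for Nod2, and -0.055 and 0.10 for Myd88. Without both control replicates 4 it was -0.23 for Tlr3, -0.070 for Nod2 and -0.078 for Myd88.

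Over all genes, the interaction called 101 genes, 266 with no filter beyond 1 count, 174 with DESeq2, and 51 (without Notch2tm1.1Ecan TNFα replicate 3) to 156 (without Notch2tm1.1Ecan vehicle replicate 1) with single libraries left out. A fold cutoff reduced the calls to 2279 of 8542 for TNFα in control cells, 2720 of 8745 in Notch2tm1.1Ecan cells, 244 of 2048 between genotypes with vehicle and 272 of 1912 with TNFα. The causes of these shifts beyond the fewer genes or libraries used were not tested.

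For samples with the same replicate number, deviations from the group means correlated between -0.17 and 0.11. The value of -0.17 belonged to replicate 4 of control cells, with vehicle and with TNFα. Over the 361 genes selected for induction, control vehicle replicate 4 lay a median of 16.2% of the way to TNFα. Control TNFα replicate 4 lacked a median of 19.1%. Whether samples with the same number share a culture or an animal was not tested. With the replicate block, 8 members were called for TNFα in control cells and 9 in Notch2tm1.1Ecan cells. The added member was Tlr4, at 0.28 (SE 0.093, adjusted p = 0.00778 by edgeR's quasi-likelihood test), and the other calls of members did not change. In the main fit the SE of Tlr4 was 0.17, so the added call went with a smaller error. The block fit gave Tlr2 and Ripk2 an adjusted p of 0 in these cells, so its p values call for caution. Nod2 with vehicle, at 1 to 31 counts, and Tlr13, at 9 to 134 counts, are the members that depth limits most.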
